A study of Mus musculus with 17 samples.

Results

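The comparison described here is of spleens from mice given poly(I:C), 3 libraries, with spleens from mice given the jetPEI vehicle, 2 libraries, which are 5 of the 17 libraries of the series. Of the 38340 named genes in the deposited expression table, the 13414 that reached at least 1 normalized CPM in at least 2 of these 5 libraries were tested, and the other 24926 were left out as too low. All mice carried the strain label CB57BL/6NCrl, and the labels give no age, sex or genotype and no time between injection and collection. The labels attach to every library, the untreated ones included, an injection protocol that names stem-loop RNAs complexed with in vivo-jetPEI and given intravenously, so the dose, carrier and route of poly(I:C) are not stated apart from it. The other libraries came from mice given the stem-loop RNAs SLR10 or SLR14 or the RNA pppNS (3 libraries each) and from untreated mice (3 libraries, called naive). The series text calls the libraries triplicate and duplicate samples of spleens. No label names the single animals, so p-values measure the spread between these samples, part of which may be technical.

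As a laboratory stand-in for viral RNA, poly(I:C) is made of paired strands of inosine and cytidine. It is sensed by the receptor TLR3 in endosomes and by the cytosolic helicases MDA5 (gene Ifih1) and RIG-I (Ddx58), which signal through TRIF and MAVS to the transcription factors IRF3, IRF7 and NF-kB and so to type I and type III interferons and inflammatory cytokines. Interferons act through JAK-STAT signalling on genes that carry interferon-stimulated response elements (ISRE), whose products block viral replication. In the spleen, red pulp macrophages, marginal zone macrophages and dendritic cells take up material from the blood and lie next to the B and T cells of the white pulp.

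The sequences before 5 genes that rose are shown because the genes stand for the arms of the response: Ifnb1 for the interferons, Ifit1 and Isg15 for the interferon-stimulated genes, Cxcl10 for the chemokines and Irg1, with the largest log2 difference among the named rises below, for myeloid metabolism. Each is the 250 bases before the gene's RefSeq start site (build GRCm38.p6), written 5′ to 3′ on the gene's own strand, with matches to the ISRE core GAAANNGAAA or to the NF-kB type motif GGGANNTTCC, searched on both strands, in capitals. Ifnb1 lies at chr4:88522795-88523044 on the minus strand and holds 1 NF-kB type match, which begins 116 bases before the start. Ifit1 lies at chr19:34640639-34640888 on the plus strand and holds 2 ISRE core matches, at 104 and 85 bases. Isg15 lies at chr4:156200819-156201068 on the minus strand and holds 3 overlapping ISRE core matches, at 78, 72 and 66 bases. Cxcl10 lies at chr5:92348890-92349139 on the minus strand and holds 1 ISRE core match at 213 bases and 1 NF-kB type match at 159 bases. Irg1, listed in RefSeq as Acod1, lies at chr14:103046762-103047011 on the plus strand, and neither set of letters is in this window.
Ifnb1: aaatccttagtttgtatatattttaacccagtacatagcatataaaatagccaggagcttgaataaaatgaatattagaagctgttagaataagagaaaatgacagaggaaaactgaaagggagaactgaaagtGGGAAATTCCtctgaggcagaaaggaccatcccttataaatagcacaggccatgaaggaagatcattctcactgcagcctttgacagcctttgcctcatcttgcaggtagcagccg
Ifit1: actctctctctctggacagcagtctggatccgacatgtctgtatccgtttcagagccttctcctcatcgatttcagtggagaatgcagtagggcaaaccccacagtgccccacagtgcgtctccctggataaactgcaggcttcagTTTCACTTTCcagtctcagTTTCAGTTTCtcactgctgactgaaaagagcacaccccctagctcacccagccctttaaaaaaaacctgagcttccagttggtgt
Isg15: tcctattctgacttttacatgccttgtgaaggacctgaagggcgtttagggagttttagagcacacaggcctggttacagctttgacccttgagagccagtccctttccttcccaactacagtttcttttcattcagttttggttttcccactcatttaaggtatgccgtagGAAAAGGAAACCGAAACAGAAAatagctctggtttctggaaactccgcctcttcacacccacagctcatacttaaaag
Cxcl10: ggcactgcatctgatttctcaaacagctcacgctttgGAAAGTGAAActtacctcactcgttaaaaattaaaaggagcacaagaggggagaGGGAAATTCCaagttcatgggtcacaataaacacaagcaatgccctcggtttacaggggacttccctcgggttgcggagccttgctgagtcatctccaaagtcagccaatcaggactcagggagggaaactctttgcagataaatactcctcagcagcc
Irg1: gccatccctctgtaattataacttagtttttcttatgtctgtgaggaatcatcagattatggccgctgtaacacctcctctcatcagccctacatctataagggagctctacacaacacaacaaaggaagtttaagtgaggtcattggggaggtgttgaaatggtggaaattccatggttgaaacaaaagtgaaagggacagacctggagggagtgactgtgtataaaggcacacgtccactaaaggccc

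Among all RefSeq start site windows of 300 bases (250 before to 50 after the start), 3.44% held the ISRE core and 1.47% the NF-kB type motif. In the windows of genes called higher after poly(I:C) by the test below, the ISRE core was in 6.81%, and in those of genes called lower it was in 1.82%. The windows of the interferon-stimulated list held it in 27 of 68 cases (39.7%). Of the 12 largest rises, 10 had a window, and 5 of their 11 windows held the ISRE core and 4 the NF-kB type motif. Of the 12 largest falls, 11 had a window, and 1 of their 14 windows held the ISRE core and 0 the NF-kB type motif. A match is a run of letters, not a shown binding site.

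Each of the 5 libraries held between 26454000 and 40093000 reads, of which 18165209 to 24879903 lay in named genes. A single read was worth 0.0199 to 0.0384 CPM. Across genes, the log2 values of the vehicle libraries correlated at 0.991, and those of poly(I:C) replicates 2 and 3 at 0.981. Poly(I:C) replicate 1 correlated with them at 0.907 and 0.952. The split followed red cell and dividing cell genes: the mean log2 level of 29 erythroid genes was 3.13, 9.03 and 7.88 in poly(I:C) replicates 1, 2 and 3 and 4.202 and 4.99 in the vehicle libraries. Replicates 2 and 3 of poly(I:C) are therefore called erythroid-high, and the counts below are also given without them, with replicate 1 as the only poly(I:C) library and the spread taken from the other groups. In bulk tissue, fewer cells of a type and less RNA per cell cannot be told apart.

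After poly(I:C) many genes measured in the spleen differed from vehicle, with interferon, interferon-stimulated and inflammatory genes at the top. Among the cell type lists, falls were most frequent in markers of conventional dendritic cells (13 of 18) and B cells (11 of 19). Neutrophil (13 of 21) and erythroid (2 of 29) genes had only rises among their calls. Stromal (7 of 19) and marginal zone and metallophilic macrophage (3 of 7) genes had only falls, and no megakaryocyte gene was called. The remaining lists of splenic cells had calls in both directions. In a limma model of log2(CPM + 0.5) over all 17 libraries, 4906 genes differed at an adjusted p under 0.05 (36.6% of those tested), 2561 of them higher (19.1%) and 2345 lower (17.5%). The rises were the larger changes: 554 genes rose and 182 fell by 4-fold or more, and 107 rose and 0 fell by 16-fold or more. The median log2 difference of all tested genes was 0.07. Where a list below has 0 members called lower than vehicle in limma, at most 2 were lower at an unadjusted p under 0.05, and edgeR and DESeq2 called 0 unless stated. Genes under 1 CPM in both vehicle libraries passed the filter only through poly(I:C) values, which favours rises in the lists that hold them. Without the erythroid-high libraries, 1887 genes were higher (14.1%) and 1466 lower (10.9%). Leaving out a vehicle library also reduced the counts, to 1677 higher and 1537 lower without replicate 1 and to 1732 and 1520 without replicate 2. Quantile scaling of the libraries put the median of all genes at -0.10 and turned the split of calls from 52.2% higher to 39.1% higher.

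Genes with a mean of at least 5 CPM over the 5 libraries and no overlap between the groups were ranked by their log2(CPM + 0.5) difference. The 12 largest rises were Irg1, Cxcl10, Mmp13, Ifng, Ifnb1, Il6, Ccl4, Rsad2, Cxcl11, Ifit1, Ifna2 and Ifit2, and the 12 largest falls were Tlx1, Arvcf, Kcnj10, Tcf21, Tlr11, Klhl14, Ccr2, Rhof, Cx3cr1, Cpm, Tmem86a and Asb2. By CPM ratio the order differs, with Ifnb1 (1776) above Irg1 (1553). Irg1 makes the enzyme that produces itaconate in activated macrophages. It was at 352, 155 and 210 CPM in poly(I:C) replicates 1, 2 and 3 and at 0.105 and 0.199 CPM in the vehicle libraries. The groups were far apart, with 22693 reads against 14, a CPM ratio of 1553 (95% counting interval 925 to 2840). Its log2 difference was 8.44 (SE 0.50, limma adjusted p = 5.11e-08).

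**Figure D1:**
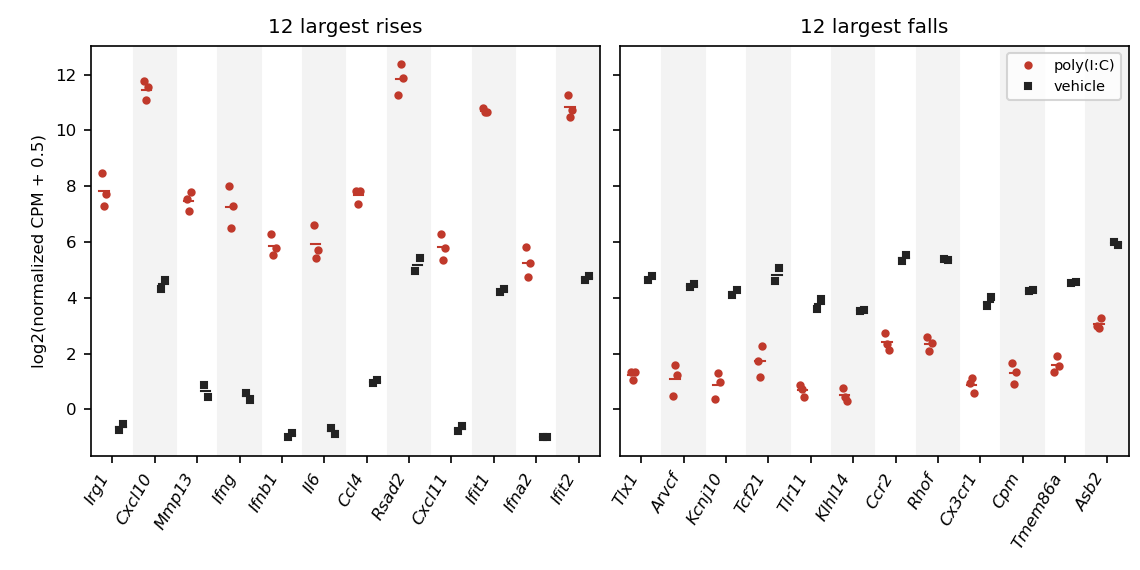
Log2(normalized CPM + 0.5) of the 12 genes with the largest rise and the 12 with the largest fall, one point per library and a short line at the group mean (3 poly(I:C) and 2 vehicle libraries). The 24 genes were chosen for groups that do not overlap. Irg1 has the largest log2 difference, from 0.105 and 0.199 CPM to between 155 and 352 CPM.

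The interferon ligands went from absent or nearly absent to present. Of 20 interferon genes listed, 16 were in the table and 13 passed the filter, and all 13 were called higher, the 11 type I genes Ifnb1 and Ifna1, 2, 4, 5, 9, 12, 13, 14, 15 and 16 and the 2 lambda genes Ifnl2 and Ifnl3. Each of the 13 passed the filter only through its poly(I:C) values, so this share was largely set by the filter. The 3 below it were Ifne and Ifnk, at 0 CPM in both groups, and Ifnz, at a mean of 0.393 CPM after poly(I:C). All 13 were also called higher without the erythroid-high libraries. Ifnb1, interferon beta, was at 76.9, 45.6 and 55.2 CPM in poly(I:C) replicates 1, 2 and 3 and at 0 and 0.0596 CPM in the vehicle libraries. That is 5561 reads against 3, a ratio of 1776 (95% counting interval 607 to 8612), and a log2 difference of 6.78 (SE 0.26, limma adjusted p = 2.72e-09). The added 0.5 CPM pulls such log2 differences towards 0, so for genes with 0 vehicle reads a bound is given against 3 reads over the vehicle group.

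Ifna4, a type I interferon made early after sensing, was at 44.0, 21.1 and 26.1 CPM after poly(I:C), with 0 reads in both vehicle libraries, at least 922-fold higher. Ifna2 was at 55.8, 26.2 and 37.2 CPM, at least 1198-fold higher, and Ifna13 was the lowest of the type I genes at 1.13, 1.01 and 1.15 CPM, at least 32.2-fold higher. Ifna16 had 652 reads after poly(I:C) and 1 in the vehicle libraries, a ratio of 625 (interval 112 to 24705). The median log2 difference of the 13 genes was 5.08 as fitted and 9.16 with such genes at their bound or ratio, beside 0.07 for all genes. In 12 of the 13 genes replicate 1, which is not erythroid-high, was the highest poly(I:C) library. That order was not particular to the interferons. It was also seen in 22 of 23 T cell and 15 of 19 B cell genes, but in 32 of 64 interferon-stimulated and 0 of 29 erythroid genes. The interferon alpha genes are near-identical copies, so how reads were shared among them is uncertain.

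The lambda genes Ifnl2 and Ifnl3, type III interferons that act mostly on epithelial cells, were singled out after their values were seen. Ifnl2 was at 9.94, 6.86 and 8.46 CPM and Ifnl3 at 7.08, 3.41 and 4.96 CPM after poly(I:C). Both had 0 reads in both vehicle libraries and in the 3 naive libraries. Ifnl2 was at least 250.0-fold higher and Ifnl3 at least 155-fold higher than vehicle. Ifnl2 and Ifnl3 are also near-identical copies. Their receptor chain Ifnlr1 was near 2 CPM in both groups (1.92 ± 0.252 CPM, SD, n = 3, against 2.06 ± 0.00875 CPM, n = 2; adjusted p = 0.853).

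Ifng, the type II interferon made by natural killer and T cells, was at 256, 90.2 and 155 CPM after poly(I:C) and at 1.00 and 0.775 CPM after vehicle. All 3 treated libraries lay far above both controls, with replicate 1 the highest, and the log2 difference was 6.79 (SE 0.56, adjusted p = 7.11e-07). Of 20 genes for interferon gamma and the interleukins 12, 15, 18 and 27 and their receptors, 12 were called higher and 1 lower (12 and 0 without the erythroid-high libraries), with a median of 1.13. Il27, a myeloid cytokine subunit, went from 0.763 and 0.596 CPM to 85.5, 47.4 and 80.1 CPM (log2 5.88, SE 0.43, adjusted p = 2.38e-07). Il12b, the shared subunit of interleukins 12 and 23, went from 1.45 and 1.09 CPM to 25.9, 15.01 and 24.4 CPM. Its partner Il12a was at 9.41 ± 1.25 CPM (n = 3) and 7.67 ± 0.275 CPM (n = 2) and did not pass the test (adjusted p = 0.649).

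**Figure D2:**
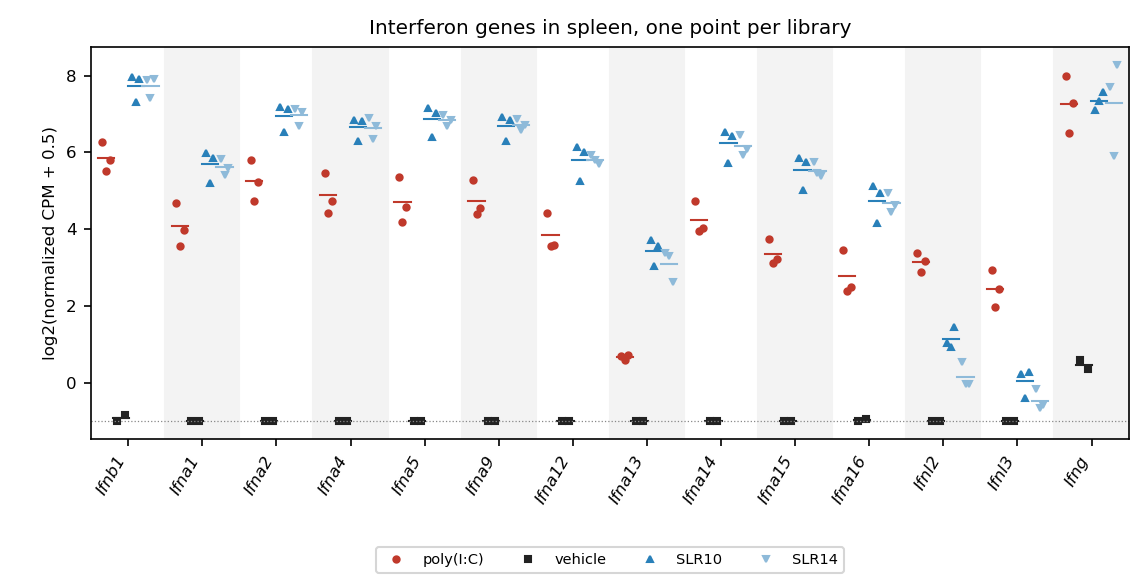
Log2(normalized CPM + 0.5) of the 13 tested type I and III interferon genes and Ifng, one point per library and a short line at the group mean, for poly(I:C), SLR10 and SLR14 (3 libraries each) and vehicle (2 libraries); the dotted line marks 0 CPM. Vehicle libraries lie on or near that line for all but Ifng, and poly(I:C) lies below both stem-loop RNAs in the type I genes and above them in Ifnl2 and Ifnl3.

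Of 28 double-stranded RNA sensors and their signalling genes, 20 were called higher and 3 lower (19 and 1 without the erythroid-high libraries), with a median log2 difference of 1.37. Ifih1, the sensor of long double-stranded RNA, was at 1188, 1159 and 1046 CPM after poly(I:C) and at 23.6 and 26.2 CPM after vehicle. Its replicates lay close together and the groups far apart, a log2 difference of 5.48 (SE 0.33, adjusted p = 5.11e-08). Ddx58 (RIG-I) was at 936, 800 and 784 CPM against 87.2 and 93.7 CPM, a log2 difference of 3.20, and Tlr3 at 137, 85.4 and 94.3 CPM against 14.8 and 18.3 CPM, a log2 difference of 2.61.

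Downstream of the sensors, Irf7, the factor that amplifies interferon alpha transcription, was at 1217, 1491 and 1510 CPM against 76.9 and 69.8 CPM. Zbp1, a sensor of Z-form nucleic acid, was at 1294, 852 and 1011 CPM against 45.5 and 43.3 CPM. Both differed well beyond their replicates (log2 4.25, SE 0.25, and 4.53, SE 0.32). Trim25, a ubiquitin ligase of the RIG-I pathway, rose by 2.50 on the log2 scale. The 3 members called lower were the adaptors Ticam1 (TRIF, -0.49) and Traf3 (-0.91) and the mitochondrial regulator Nlrx1 (-0.74), and none of these 3 was called without the erythroid-high libraries (adjusted p = 0.247, 0.205 and 0.0866). The 1 member called lower in that fit was the adaptor Mavs (log2 -1.32, adjusted p = 0.0173). With all libraries Mavs stood at 21.4 ± 12.8 CPM (n = 3) against 26.5 ± 2.36 CPM (n = 2), with an adjusted p of 0.375. Irf3 stood at 58.2 ± 4.41 CPM against 65.3 ± 5.68 CPM, with an adjusted p of 0.491. Of 15 Toll-like receptor genes and partners, 5 rose (Tlr2, Tlr3, Tlr7, Cd14 and Ly96) and 3 fell (Tlr1, Tlr11 and Tlr12), with a median of 0.09. These were 5 and 2 without the erythroid-high libraries and 5 and 5 with quantile scaling.

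Among 24 interferon receptor, JAK-STAT and feedback genes, 15 were called higher and 3 lower (14 and 3 without the erythroid-high libraries), with a median of 1.59. The feedback inhibitors Socs1, Usp18 and Cish moved furthest. Other inhibitors rose less, by 3.40 in Socs3, 1.94 in Socs2 and 1.33 in Ptpn2, or did not pass the test (Pias1). Socs1, which blocks JAK kinases, went from 5.40 and 4.81 CPM to 291, 274 and 366 CPM (log2 5.78, SE 0.46, adjusted p = 4.64e-07). Usp18, which removes ISG15 and dampens the type I receptor, went from 15.1 and 15.8 CPM to 688, 882 and 725 CPM (log2 5.57, SE 0.33), and Cish from 4.87 and 5.18 CPM to 85.8, 146 and 108 CPM (log2 4.33, SE 0.22). Stat2 and Irf9, which carry the type I interferon signal to the nucleus, rose by 3.13 and 1.65. The 3 falls were both chains of the interferon gamma receptor, Ifngr1 (-0.97) and Ifngr2 (-1.20), and the phosphatase Ptpn6 (-1.01), and all 3 were also called lower without the erythroid-high libraries. The type I receptor chain Ifnar1 was at 66.1 ± 5.65 CPM (n = 3) against 65.7 ± 7.65 CPM (n = 2), a log2 difference of 0.01 (SE 0.15).

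The antiviral genes rose almost without exception. Of 64 interferon-stimulated genes tested, 61 were called higher and 0 lower, with a median log2 difference of 3.49 (lower in limma at an unadjusted p under 0.05, 0, and by edgeR and DESeq2, 0). Every poly(I:C) library lay above both vehicle libraries in 30 of 49 ribosomal protein genes, none of them called, and in all 64 interferon-stimulated genes. Without the erythroid-high libraries 59 were called higher. Ifit1, which binds foreign RNA ends, was at 1791, 1603 and 1597 CPM after poly(I:C) and at 17.9 and 19.3 CPM after vehicle. Its treated replicates differed little among themselves (log2 6.44, SE 0.42, adjusted p = 1.13e-07). Rsad2 (viperin, which makes a chain-terminating nucleotide) was at 2433, 5286 and 3796 CPM against 30.5 and 42.5 CPM, a log2 difference of 6.65 (SE 0.56). Mx1, a dynamin-like antiviral GTPase, was at 1784, 1246 and 1356 CPM against 30.2 and 34.4 CPM (log2 5.47, SE 0.34).

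Isg15, the ubiquitin-like modifier, was at 785, 1777 and 1294 CPM after poly(I:C) against 20.9 and 22.05 CPM. Like Rsad2 it was higher in the erythroid-high replicates, and its log2 difference was 5.79 with all libraries and 5.16 with replicate 1 alone. Ube2l6, the enzyme that loads ISG15, showed the same order more strongly, at 187, 906 and 546 CPM against 51.1 and 53.6 CPM, and Apol9b stood at 4.71, 31.5 and 18.2 CPM against 0.869 and 1.13 CPM. These 2 genes, chosen after their values were seen, were no longer called without the erythroid-high libraries (log2 1.83 and 1.80, adjusted p = 0.191 and 0.283). The part of erythroid RNA in these differences was not tested. The 3 list members not called were Ifi27l2a, Ifitm1 and Ifitm2. Ifitm1 was at 55.9, 25.9 and 45.5 CPM against 18.7 and 20.2 CPM (adjusted p = 0.0798).

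All 16 guanylate-binding and immunity-related GTPases tested were called higher, with a median of 4.46 and with or without the erythroid-high libraries. These proteins attack the vacuoles of intracellular microbes. Irgm1 was at 1646, 1661 and 1481 CPM against 70.8 and 74.4 CPM (log2 4.45, SE 0.21, adjusted p = 9.71e-09). Gbp5 was at 1698, 1096 and 1302 CPM against 28.1 and 31.5 CPM (log2 5.47, SE 0.34). The widest error was that of Gvin1, a very large GTPase, from 5.76 and 7.92 CPM to 48.2, 30.5 and 30.4 CPM (log2 2.31, SE 0.59, adjusted p = 0.00723). It was also called higher in replicate 1 alone (adjusted p = 0.0313). Tgtp1 and Tgtp2 are near-identical copies, so the split of reads between them is uncertain.

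Chemokines rose, while the receptors of several resident leukocytes fell. Of 25 chemokines, 15 were called higher and 1 lower, with a median of 3.34, and without the erythroid-high libraries 15 and 0. Cxcl1, Cxcl2, Cxcl11, Ccl7 and Ccl12, all called higher, were under 1 CPM in both vehicle libraries. They passed the filter only through poly(I:C), so the share called higher was partly set by the filter. Cxcl10, a ligand of CXCR3 on activated T and natural killer cells, was at 3461, 2149 and 3021 CPM after poly(I:C) and at 19.6 and 24.3 CPM after vehicle (log2 6.98, SE 0.37, adjusted p = 2.12e-08). The other CXCR3 ligands rose too. Cxcl9 was at 1323, 662 and 979 CPM against 19.3 and 25.1 CPM, and Cxcl11 at 77.6, 40.2 and 55.0 CPM against 0.079 and 0.159 CPM. Ccl2, which draws monocytes, was at 151, 94.5 and 131 CPM against 1.55 and 2.11 CPM (log2 5.74, SE 0.38). Ccl4 and Ccl3, inflammatory chemokines of activated macrophages, rose by 6.67 and 4.81 on the log2 scale. The 1 member called lower was Cxcl12 (-0.88), the ligand of CXCR4, and this call was lost in replicate 1 alone. The follicular chemokine Cxcl13 overlapped between the groups at 146, 86.8 and 81.4 CPM against 91.3 and 90.2 CPM.

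Of 22 chemokine and egress receptors, 6 were called higher and 11 lower (6 and 8 without the erythroid-high libraries), with a median of -0.73. Ccr2, the monocyte receptor for CCL2, fell from 39.0 and 45.6 CPM to 6.21, 4.58 and 3.88 CPM (log2 -3.01, adjusted p = 2.69e-07). Cx3cr1, a marker of patrolling monocytes, fell from 12.5 and 15.7 CPM to 1.41, 1.69 and 0.999 CPM. Xcr1, the receptor of cross-presenting dendritic cells, fell from 14.9 and 15.7 CPM to 1.92, 1.72 and 1.58 CPM. In each of the 3 genes all treated libraries lay below both controls. S1pr5, an egress receptor of natural killer cells, fell from 2.82 and 3.16 CPM to between 0.065 and 0.113 CPM, a level near that of 3 reads (0.0596 to 0.115 CPM). Ccrl2, a receptor induced on activated cells, rose from 2.79 and 4.05 CPM to 162, 161 and 160.1 CPM (log2 5.38, SE 0.25), with hardly any spread among the treated libraries.

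Inflammatory cytokines and their inhibitors were called higher in 21 of 25 cases and lower in 0, with a median of 2.96 (18 without the erythroid-high libraries; 21 higher and 2 lower with quantile scaling). Among those called higher, Il6, Il10, Csf2, Csf3, Il1f9, Ptgs2, Saa3 and Sele were under 1 CPM in both vehicle libraries. They passed the filter only through poly(I:C), so the share called higher was partly set by the filter. Il6 was at 97.9, 42.6 and 51.4 CPM after poly(I:C) and at 0.132 and 0.0397 CPM after vehicle (log2 6.69, SE 0.45, adjusted p = 1.29e-07). Tnf was at 154, 99.8 and 144 CPM against 9.69 and 9.61 CPM (log2 3.69, SE 0.24). Il1b was at 177, 72.3 and 92.0 CPM against 13.4 and 12.5 CPM, and Il1rn, which makes the antagonist of the interleukin 1 receptor, at 252, 96.0 and 150.2 CPM against 2.92 and 3.28 CPM. The antagonist's log2 difference (5.42, SE 0.34) was larger than that of Il1b (2.98, SE 0.45). In all 4 genes replicate 1 was the highest of the treated libraries, as it was in 16 of the 25 genes of the list. The adhesion molecule Vcam1 (323 ± 9.87 CPM against 281 ± 56.9 CPM) and Ptges (9.49 ± 2.80 CPM against 8.84 ± 0.70 CPM) did not pass the test (adjusted p = 0.321 and 0.858).

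Of 24 NF-kB subunit and feedback genes, 20 were called higher and 0 lower, with a median of 1.34 (19 without the erythroid-high libraries, 14 with quantile scaling). In all 24 every treated library lay above both controls, an order also seen in 30 of 49 ribosomal protein genes, none of them called. Tnfaip2 was at 402, 324 and 398 CPM against 32.5 and 33.1 CPM, with the smallest error of the list (log2 3.49, SE 0.14, adjusted p = 2.72e-09). Nfkbiz, an atypical inhibitor that drives secondary genes such as Il6, was at 193, 114 and 143 CPM against 27.4 and 30.9 CPM. Irak3 and Cyld did not pass the test (0.40 and 0.29). Of 20 immediate early genes, 13 were called higher and 0 lower, also without the erythroid-high libraries. Atf3, a stress-induced repressor, went from 2.82 and 2.74 CPM to 117, 86.4 and 111 CPM (log2 4.995, SE 0.25), and Myc from 48.9 and 36.8 CPM to 493, 321 and 387 CPM (log2 3.20, SE 0.25). Nr4a1 overlapped between the groups (29.6 ± 7.02 CPM against 31.0 ± 1.48 CPM), whereas its relative Nr4a3 rose by 5.05.

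Antigen presentation genes were counted by class. Of 23 MHC class I genes, 18 were called higher and 0 lower, with a median of 1.27, but 11 without the erythroid-high libraries and 9 higher and 3 lower with quantile scaling. Tap1, a chain of the peptide transporter, was at 838, 784 and 818 CPM against 168 and 151 CPM (log2 2.35, SE 0.25, adjusted p = 6.15e-06). Nlrc5, the class I transactivator, was at 813, 564 and 651 CPM against 99.5 and 106 CPM (log2 2.70, SE 0.29). The chaperones Calr and Pdia3 did not pass the test (0.00 and 0.30).

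Of 14 MHC class II genes, 2 were called higher and 4 lower, with a median of -0.38. Without the erythroid-high libraries these were 1 and 0, and with quantile scaling 0 and 9. The 4 that fell were H2-Eb2, H2-DMa, H2-DMb1 and H2-DMb2, the last 3 being chains of the peptide loading factor. H2-DMb1 was at 42.6, 33.1 and 37.8 CPM against 71.8 and 67.4 CPM (log2 -0.88, SE 0.20). The invariant chain Cd74 was at 2746, 1849 and 2350 CPM against 2277 and 1641 CPM, with overlapping groups (adjusted p = 0.548). The 2 that rose were the lysosomal enzymes Ctss and Ifi30, and Ifi30 turned from 0.63 to -0.21 with quantile scaling.

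Costimulatory and checkpoint molecules were called higher in 16 of 29 cases and lower in 3 (16 and 2 without the erythroid-high libraries), with a median of 1.39. Cd274 (PD-L1) was at 773, 691 and 683 CPM against 38.3 and 43.3 CPM (log2 4.12, SE 0.44, adjusted p = 7.44e-06), Cd69, an early activation marker that retains lymphocytes, at 785, 471 and 509 CPM against 20.3 and 19.8 CPM, and Cd40, which receives T cell help, at 298, 175 and 217 CPM against 26.8 and 27.7 CPM. The 3 falls were Cd28, Havcr2 and 4632428N05Rik. Havcr2 (TIM-3) fell from 17.8 and 19.6 CPM to 3.25, 2.60 and 3.34 CPM. Among 18 cytotoxic genes, 7 were called higher and 5 lower, but 8 and 2 without the erythroid-high libraries. Gzmb, granzyme B, went from 2.47 and 3.32 CPM to 114, 63.5 and 98.3 CPM (log2 4.74, SE 0.35), and Eomes, a transcription factor of cytotoxic lymphocytes, from 9.34 and 7.90 CPM to 35.7, 29.3 and 35.3 CPM. Natural killer receptors of the list were mixed. Klrb1c (-1.75), Klrd1 (-1.71), Klra8 (-1.64) and Klrg1 (-0.66) fell, Klrk1 rose (1.15), and Klrc1 and Ncr1 were not called.

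Of 23 cell death genes, 12 were called higher and 0 lower (10 without the erythroid-high libraries), with a median of 0.79. Mlkl, which executes necroptosis, was at 81.8, 86.4 and 85.8 CPM against 5.03 and 5.56 CPM (log2 3.88, SE 0.37). Casp4, the caspase that senses intracellular lipopolysaccharide, was at 223, 148 and 162 CPM against 16.1 and 19.4 CPM (log2 3.27, SE 0.32). Aim2 stood at 45.7 ± 11.9 CPM against 44.1 ± 0.62 CPM. Itaconate, nitric oxide, glycolysis and oxysterol genes were called higher in 17 of 23 cases and lower in 0 (14 without the erythroid-high libraries; 14 higher and 4 lower with quantile scaling). At an unadjusted p under 0.05 in limma 2 were lower, and edgeR called 1 and DESeq2 2 lower. Nampt, which recycles NAD, went from 53.2 and 58.4 CPM to 862, 664 and 674 CPM, and Hk2, a hexokinase, from 11.3 and 11.5 CPM to 93.7, 54.8 and 65.4 CPM.

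Matrix proteases and remodelling genes were called higher in 17 of 22 cases and lower in 1 (16 and 1 without the erythroid-high libraries), with a median of 1.83. Mmp13, a collagenase, went from 1.32 and 0.874 CPM to 185, 137 and 219 CPM (log2 6.81, SE 0.54, adjusted p = 4.69e-07), and Adamts4, an aggrecanase, from 0.553 and 0.596 CPM to 97.8, 48.8 and 75.4 CPM (log2 6.06, SE 0.44). The 1 fall was Adamts5 (-1.92). Cholesterol synthesis genes went the other way, with 2 of 19 called higher and 8 lower (2 and 3 without the erythroid-high libraries). The sterol reductase Dhcr7 fell from 12.6 and 10.5 CPM to 4.35, 4.87 and 5.15 CPM, and Insig1, which holds the sterol sensor in place, rose by 0.96. Of 17 glucocorticoid-responsive and metallothionein genes, 9 rose and 2 fell (8 and 2 without the erythroid-high libraries). Mt2, a metal-binding protein, went from 3.05 and 2.84 CPM to 231, 173 and 225 CPM, and Cdkn1a, a cell cycle inhibitor, rose by 4.27. The 2 falls were Ddit4 and Angptl4 (-1.90 and -0.95). Of 16 complement genes 4 rose and 1 fell, with a median of 0.09, but 3 rose and 1 fell without the erythroid-high libraries and 2 rose and 6 fell with quantile scaling.

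**Figure D3:**
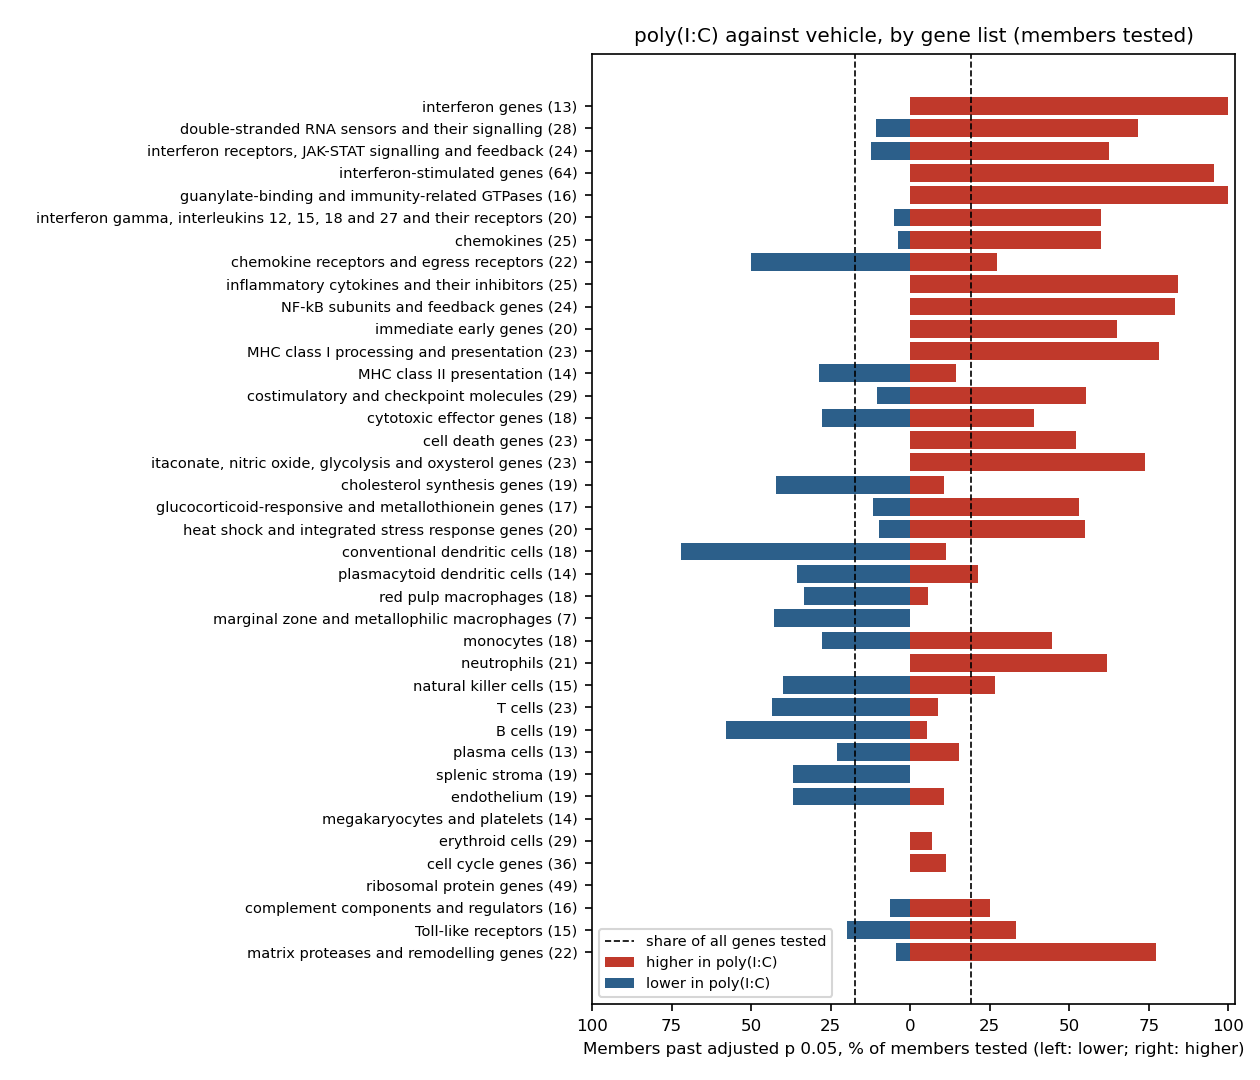
Share of each gene list past an adjusted p of 0.05 in poly(I:C) against vehicle, in percent of the members tested (number in brackets), with genes called higher to the right and lower to the left. Dashed lines mark the shares among all genes tested, 19.1% and 17.5%. The interferon and GTPase lists reach 100% on the right, and conventional dendritic cell markers reach furthest to the left with 13 of 18. The interferon genes passed the filter only through poly(I:C), so their share was largely set by the filter. Some members of other lists, among them the inflammatory and chemokine lists, did so too.

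Markers of splenic cell types moved in both directions. Conventional dendritic cell markers were called higher in 2 of 18 cases and lower in 13, with a median of -1.09 (2 and 7 without the erythroid-high libraries; 0 and 12 with quantile scaling). Itgax (CD11c) fell from 65.9 and 66.7 CPM to 21.99, 16.9 and 21.5 CPM (log2 -1.71, SE 0.18, adjusted p = 7.35e-06). Naaa, an amidase enriched in these cells, fell from 53.8 and 56.4 CPM to 15.5, 14.5 and 14.5 CPM, and Tlr11, a receptor for microbial profilin, from 11.7 and 15.03 CPM to 1.35, 1.17 and 0.846 CPM. The transcription factor Batf3 did not pass the test (9.79 ± 1.61 CPM against 7.10 ± 0.941 CPM), and the 2 members called higher were Dpp4 and Kmo. Of 14 plasmacytoid dendritic cell genes 3 rose and 5 fell, but 3 and 3 without the erythroid-high libraries. The 3 that rose, Bst2, Irf8 and Tcf4, include Bst2, which the interferon-stimulated list also holds.

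Red pulp macrophage genes were called higher in 1 of 18 cases and lower in 6 (0 and 4 without the erythroid-high libraries). Slc40a1 (ferroportin), which exports the iron of digested red cells, fell from 213 and 290.1 CPM to 29.9, 40.1 and 38.5 CPM (log2 -2.78, SE 0.26, adjusted p = 2.03e-06). Hpgd, which degrades prostaglandins, fell from 45.0 and 55.7 CPM to 11.4, 13.2 and 15.1 CPM. The complement gene C1qb and the receptor Axl overlapped between the groups (114 ± 27.03 CPM against 115 ± 2.95 CPM, and 176 ± 33.1 CPM against 174 ± 28.6 CPM). With all libraries 11 of the 18 red pulp macrophage genes were not called, and the median log2 difference was -0.34. Of 7 marginal zone and metallophilic macrophage genes 3 fell (2 without the erythroid-high libraries), among them the lectin Cd209b, from 4.42 and 7.25 CPM to 1.33, 1.10 and 1.19 CPM. Of 18 monocyte genes 8 rose and 5 fell (7 and 5 without the erythroid-high libraries), with a median of 0.40 that turned to -0.01 with quantile scaling. The falls of Ccr2 and Cx3cr1 stood beside rises of Clec4e (4.37), a receptor for damaged cells and mycobacteria, and Vcan (2.62).

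Neutrophil genes were called higher in 13 of 21 cases and lower in 0, with a median of 1.78 and the same counts without the erythroid-high libraries and with quantile scaling. Hdc, the histamine-producing enzyme, was at 141, 70.7 and 91.1 CPM against 2.90 and 2.72 CPM (log2 4.88, SE 0.35, adjusted p = 2.06e-07). Mmp8, neutrophil collagenase, was at 103, 50.4 and 56.8 CPM against 3.82 and 3.63 CPM (log2 3.99, SE 0.36). Retnlg, a secreted protein of mature neutrophils, was at 166, 87.4 and 94.8 CPM against 5.05 and 4.59 CPM. The primary granule proteases Elane and Prtn3, made by immature cells, did not pass the test (0.38 and 0.26).

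B cell genes were called higher in 1 of 19 cases and lower in 11, with a median of -0.92 (1 and 10 without the erythroid-high libraries). Fcer2a (CD23), a follicular B cell marker, fell from 212 and 196 CPM to 34.1, 26.9 and 26.2 CPM (log2 -2.80, SE 0.35), and Cr2 (CD21), a complement receptor, from 259 and 279 CPM to 79.4, 42.4 and 41.9 CPM (log2 -2.36, SE 0.27). The lineage factor Pax5 (47.7 ± 8.78 CPM against 55.8 ± 7.79 CPM) and Ms4a1 (326 ± 89.8 CPM against 354 ± 19.0 CPM) did not pass the test (adjusted p = 0.671 and 0.73). T cell genes were called higher in 2 of 23 cases and lower in 10, but 3 and 2 without the erythroid-high libraries. Cd5, a brake on antigen receptor signalling, fell from 31.8 and 27.4 CPM to 4.12, 3.87 and 3.54 CPM (log2 -2.79, adjusted p = 1.35e-07), and Thy1 from 60.9 and 53.6 CPM to 15.6, 14.2 and 13.6 CPM. The kinase Lck stood at 82.8 ± 6.89 CPM against 84.9 ± 4.78 CPM. Of 15 natural killer genes 4 rose and 6 fell, but 4 and 3 without the erythroid-high libraries. Of 13 plasma cell genes 2 rose and 3 fell, but 4 and 2 without the erythroid-high libraries.

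Stromal genes were called higher in 0 of 19 cases and lower in 7, and 4 without the erythroid-high libraries. Tlx1, a homeobox gene that the spleen needs to form, showed the largest of the 12 falls, from 24.6 and 27.1 CPM to 2.00, 1.56 and 2.04 CPM (log2 -3.48, SE 0.21, adjusted p = 5.02e-08). Tcf21, a mesenchymal transcription factor, fell from 23.6 and 32.8 CPM to 2.79, 1.75 and 4.34 CPM (log2 -3.10, SE 0.33), and Nkx2-5 from 3.11 and 3.06 CPM to 0.508, 0.455 and 1.15 CPM. The collagen gene Col1a2 was at 70.7 ± 18.4 CPM against 69.2 ± 10.6 CPM. Of 19 endothelial genes 2 rose and 7 fell (0 and 6 without the erythroid-high libraries). Sox17, an arterial transcription factor, fell from 6.32 and 6.83 CPM to 0.536, 0.357 and 0.384 CPM (log2 -2.94, SE 0.23). None of 14 megakaryocyte genes was called in limma or by edgeR and DESeq2, and 1 was lower at an unadjusted p under 0.05.

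Other genes among the 12 largest falls were Kcnj10, a potassium channel, from 16.6 and 19.0 CPM to 0.790, 1.95 and 1.499 CPM, and Arvcf, a catenin family member, from 20.3 and 21.8 CPM to 0.903, 2.53 and 1.84 CPM. In both, replicate 1 was the lowest treated library. Klhl14, from 10.9 and 11.4 CPM to 1.19, 0.877 and 0.730 CPM, and Cpm, a carboxypeptidase, from 18.2 and 19.1 CPM to 2.65, 1.397 and 2.04 CPM, had replicate 1 as the highest. All 12 were also called lower without the erythroid-high libraries.

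Erythroid genes spread widely among the treated libraries. Of 29, 2 were called higher (Tfrc and Epb4.1) and 0 lower, and in all 29 poly(I:C) replicate 2 was the highest of the treated libraries. Alas2, which starts heme synthesis in red cell precursors, was at 125, 1519 and 902 CPM after poly(I:C) and at 121 and 136 CPM after vehicle (log2 2.11, SE 0.95, adjusted p = 0.101). Cell cycle genes had the same order, with 4 of 36 called higher (Mcm6, Tpx2, Mcm4 and Cenpe). Mki67, a proliferation marker, was at 100.8, 1789 and 671 CPM against 84.4 and 142 CPM (log2 2.17, SE 1.08, adjusted p = 0.134). Neither list had a call left without the erythroid-high libraries. Of 49 ribosomal protein genes none was called in limma or by edgeR and DESeq2 (1 was higher at an unadjusted p under 0.05), with a median of 0.23 that turned to -0.73, with 38 called lower, with quantile scaling. Digestive enzymes of the pancreas other than Cela1, which could mark tissue next to the spleen, were at or under 0.254 CPM in all 5 libraries. Fat cell genes other than Fabp4 stood out in vehicle replicate 2 alone (Cfd 9.43, Car3 9.87 and Adipoq 2.11 CPM, at most 0.5 CPM after poly(I:C)). Fabp4 overlapped between the groups, at 8.21, 4.94 and 6.07 CPM after poly(I:C) against 4.53 and 10.45 CPM after vehicle.

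**Figure D4:**
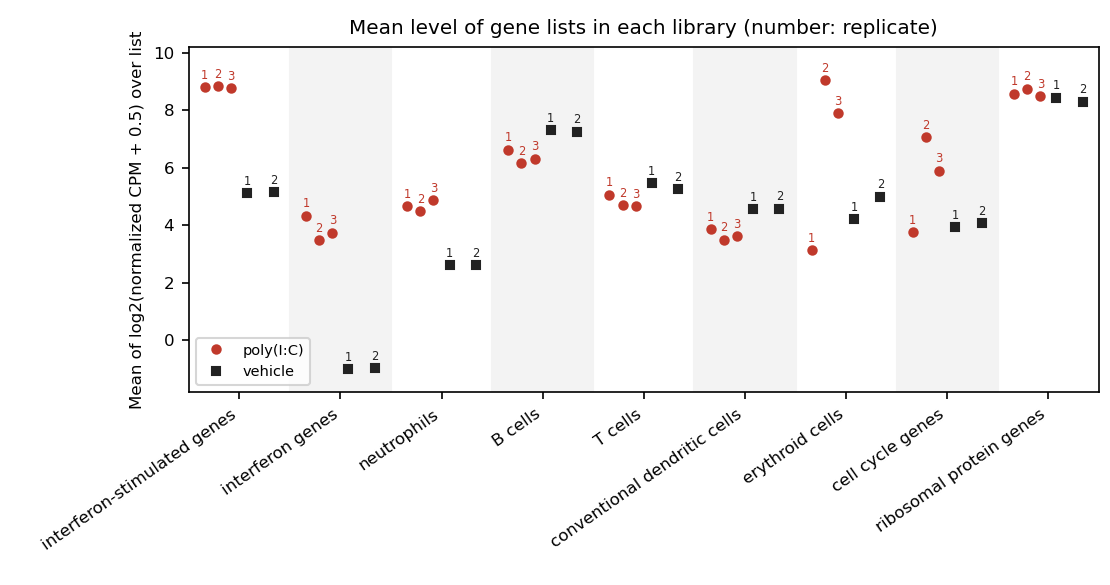
Mean of log2(normalized CPM + 0.5) over the tested members of 9 gene lists in each of the 5 libraries, with the replicate number above each point. The treated and vehicle points are apart for interferon-stimulated genes, whereas the erythroid list runs from 3.13 in replicate 1 to 9.03 in replicate 2 and the cell cycle list from 3.74 to 7.05.

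Poly(I:C) was also set against the mean of SLR10 and SLR14, hairpin RNAs built as ligands of RIG-I, in the same limma model. Since the dose of poly(I:C) is not stated apart, an effect of dose cannot be told apart from one of the RNA. SLR14 replicate 2 was erythroid-high as well (mean level 8.46). Of the 13414 genes 467 differed (3.48%), 258 higher (1.92%) and 209 lower (1.56%) after poly(I:C). These counts depended on single libraries: they were 1062 and 364 without poly(I:C) replicate 1, 17 and 8 without the erythroid-high poly(I:C) libraries, and 593 and 319 without SLR14 replicate 2. Without poly(I:C) replicate 2 they were 115 and 66, without poly(I:C) replicate 3 76 and 84, without SLR14 replicate 1 111 and 100, and without SLR10 replicate 1, 2 or 3 they were 124 and 115, 132 and 114, and 101 and 95.

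The interferons split by type. All 11 type I genes were called lower after poly(I:C) than after the stem-loop RNAs, with every poly(I:C) library below every stem-loop library, and both lambda genes were called higher, with every poly(I:C) library above. Among the 64 interferon-stimulated genes, 5 lay wholly below in this way and 1 wholly above. Ifnb1 was at 250, 158 and 243 CPM after SLR10 and at 235, 170 and 241 CPM after SLR14, which made poly(I:C) lower by 3.65-fold on the log2(CPM + 0.5) scale (log2 -1.87, SE 0.20, adjusted p = 0.000298). Ifna13 was at 12.7, 7.72 and 11.3 CPM after SLR10 and at 9.95, 9.33 and 5.69 CPM after SLR14, against 1.01 to 1.15 CPM after poly(I:C) (log2 -2.60, adjusted p = 3.41e-06). Ifnl2 was at 1.54, 1.398 and 2.23 CPM after SLR10 and at 0.957, 0.476 and 0.474 CPM after SLR14, below the 6.86 to 9.94 CPM of poly(I:C) (log2 2.50, SE 0.16, adjusted p = 3.41e-06). Ifnl3 differed by 2.67 (SE 0.20, adjusted p = 9.01e-06). Without the erythroid-high poly(I:C) libraries, 4 of the 11 type I genes and both lambda genes were called. Ifng did not differ by the test (log2 -0.06, adjusted p = 0.97, 95% interval of the log2 difference -0.99 to 0.88).

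Of the 64 interferon-stimulated genes none was called different from the stem-loop RNAs in limma or by edgeR and DESeq2, 4 were higher and 1 lower at an unadjusted p under 0.05, and for 49 of them the 95% interval lay within 2-fold, as it did for 78.9% of all genes. Cxcl10 was at 2866, 3060 and 2915 CPM after SLR10 and at 2930, 2736 and 3589 CPM after SLR14, overlapping the 2149 to 3461 CPM of poly(I:C). Of 20 heat shock and stress genes, 11 rose and 2 fell against vehicle (9 and 1 without the erythroid-high libraries), and 6 were lower than after the stem-loop RNAs. Hspa1a, an inducible HSP70, was at 3.25, 1.56 and 2.81 CPM after poly(I:C), at 0.842 and 0.794 CPM after vehicle, at 17.3, 11.6 and 36.0 CPM after SLR10 and at 22.6, 14.2 and 26.5 CPM after SLR14. It thus lay between the groups (log2 -2.79 against the stem-loop RNAs, adjusted p = 0.000219). Hspa1a and Hspa1b are near-identical copies.

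Among 21 neutrophil genes, 4 were higher after poly(I:C) than after the stem-loop RNAs (Mmp8, Mmp9, Cd177 and Padi4) and 0 lower in limma (0 at an unadjusted p under 0.05), with a median of 0.78. Mmp9, gelatinase B, was at 35.7, 19.7 and 20.3 CPM after poly(I:C), at 9.82 and 7.57 CPM after vehicle and at 5.33 to 7.81 CPM in the 6 stem-loop libraries (log2 1.87, SE 0.22, adjusted p = 0.000574). Plagl1, a zinc finger transcription factor, outside the interferons had the largest difference on the higher side among the genes named by rule, at 21.5, 14.6 and 20.0 CPM against 0.921 and 1.45 CPM after vehicle and 3.19 to 4.44 CPM in the stem-loop libraries (log2 2.20, adjusted p = 3.36e-05). Cbfa2t3, a transcriptional corepressor, was at 4.71, 5.98 and 6.46 CPM after poly(I:C), at 33.0 and 24.2 CPM after vehicle and at 19.0 to 30.0 CPM in the stem-loop libraries (log2 -2.08, adjusted p = 0.00152). It was low after poly(I:C) and at the vehicle level after the stem-loop RNAs.

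**Figure D5:**
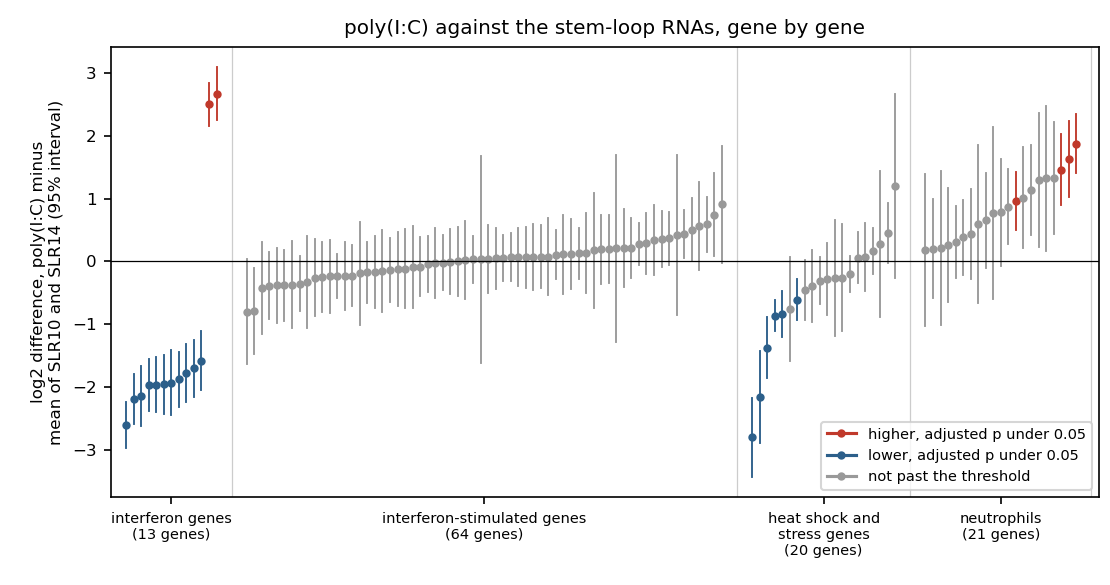
Log2 difference of poly(I:C) minus the mean of SLR10 and SLR14, with its 95% interval not adjusted for the number of genes, for each tested gene of 4 lists, ordered within a list. The 11 type I interferon genes lie below 0 and the 2 lambda genes above, the 64 interferon-stimulated genes lie around 0 with none past the threshold, 6 of 20 stress genes are lower and 4 of 21 neutrophil genes higher.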

How the data were processed

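Spleen RNA was sequenced from 17 libraries in 6 groups, made with a stranded mRNA kit, per the labels' protocols. The submitters' processing notes name the builds GRCm38 and mm10 and the tools HTSeq, edgeR, SAMtools 1.4, TopHat2 2.0.6, TopHat and FastQC, without roles or order. The annotation, strand setting and edgeR settings are not given in the sources used here, so reads of overlapping or antisense genes may be shared. The deposited signal is edgeR-normalized CPM, per the file headers, but columns sum to between 696096 and 1484240, so values are relative. The sums split by the groups compared: 696315 and 696096 in the vehicle libraries and 1131650, 1275800 and 1169690 in poly(I:C) replicates 1, 2 and 3. Median-of-ratios scaling gave 2443 genes higher and 2460 lower, and quantile scaling 1925 and 2999. Of 39184 lines, 5 without a gene name, 699 marked #N/D and 27 named as calendar dates were left out. The 5 lines held 31.1 and 31.9% of the reads in the vehicle libraries and 37.4 to 39.9% in the poly(I:C) libraries. Of the 87 names that occurred more than once, only the line with the highest total was kept (113 lines dropped), which left 38340 genes.

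Differences were tested with limma 3.58.1 (R 4.3.3, intensity-dependent trend) on log2(CPM + 0.5) over 17 libraries and 6 groups, with 11 residual degrees of freedom and Benjamini-Hochberg adjustment over 13414 genes at 0.05. Fold changes on this scale understate low genes. Whole reads were recovered from the steps of the values (at least 99.98% whole within 0.01 reads) and gave read counts, 95% counting intervals and floors of 3 reads, which cover counting error only. On these reads edgeR 4.0.16 called 2354 genes higher and 2528 lower and DESeq2 1.42.0 2933 and 2697. Other alternatives were the pseudocount, filter, scaling, library weights, the libraries fitted, naive controls, a replicate block and each library left out. The fitting script was tested on simulated data. The comparison, gene lists and tests were chosen with earlier results of these data known. Named by rule were the 12 largest rises and falls (mean of at least 5 CPM, no overlap), a panel of 25 genes, the 8 largest differences from the stem-loop RNAs in each direction and, in each list, the 4 smallest and 2 largest p-values. Members that complete a count of 5 or fewer, and Ifnl2, Ifnl3, Ifnlr1, Mavs, Irf3, Irf9, Stat2, Havcr2, Ube2l6 and Apol9b, were chosen after their values were seen. So were Socs2, Socs3, Ptpn2, Pias1, Klra8, Klrg1, Klrk1 and members listed only for being under 1 CPM in both vehicle libraries. Promoter sequences are from RefSeq (GRCm38.p6), and 10311 of the 13414 tested genes matched one by symbol.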

Additional observations from a re-analysis of the deposited data

Results flagged for a closer look

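The libraries labelled pppNS entered no comparison with vehicle here. The mean log2 level of the 64 interferon-stimulated genes in them was 7.666, 6.642 and 7.653 in replicates 1, 2 and 3, above every vehicle library (5.121 and 5.137) and every naive library (4.923, 4.869 and 4.744). No cause was tested.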

How the results depend on the processing

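Leaving out 1 library at a time gave 1677 to 2913 genes higher and 1520 to 2263 lower than vehicle, and 60 to 62 interferon-stimulated genes higher. A filter at 5 CPM, which tests fewer genes, gave 1550 lower, and leaving out the erythroid-high poly(I:C) libraries 1466. Against the stem-loop RNAs, leaving out 1 library gave 76 to 1062 higher and 66 to 364 lower, and leaving out both erythroid-high libraries 17 and 8. Library weights gave 114 and 84, a fit of only the compared libraries 401 and 426, DESeq2 on the recovered reads 696 and 513, and quantile scaling 104 higher. The cause of these shifts was not tested. Ifi30 reversed to -0.21 with quantile scaling. Of 170 named genes called against vehicle, 16 lost the call without vehicle replicate 1, 14 without vehicle replicate 2, 15 without the erythroid-high libraries and 7 with quantile scaling. Replicate numbers are shared between the groups, but no label says that they pair the mice. Deviations of same-numbered libraries from their group means correlated at 0.19 and 0.17. With only 2 vehicle libraries the vehicle deviations mirror each other, so this check cannot tell whether the numbers pair samples. A replicate block gave 2745 genes higher and 2353 lower. With 2 vehicle libraries and 3 treated libraries, an exact permutation test of 1 gene could not reach 0.05. At the lowest levels, 3 reads equal 0.0596 to 0.115 CPM.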
